A study of Homo sapiens with 4 samples.

Results

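The 48 genes described here encode the machinery of mitosis and of the G2/M transition: mitotic cyclins and kinases, kinesins, kinetochore proteins and the proteins of the spindle and of cytokinesis. They were chosen by name, as the non-control probes whose gene name on the array is exactly that of a member, and 48 of the 36337 gene names on the array belonged to them. The list itself was drawn up with earlier results of these data known. One probe was taken for each gene, the probe with the highest mean signal over the 4 arrays. This choice of probe did not use the difference between the conditions. The members were measured by 61 probes, and each of the 48 chosen probes was detected, that is well above background, on every one of the 4 arrays.

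The RNA came from the human line GIST-T1, whose cells originate from a gastrointestinal stromal tumor (GIST). For one condition the cells were transfected with a miR-34a mimic (100 pmol), a synthetic RNA made to work like the natural mature form, and for the other with the same amount of mimic Negative Control #1, and RNA was collected 48 h later from 2 samples of each condition. Each sample was hybridized to a one-color Agilent array, and all 4 arrays lay on 1 slide. A single cell line was used, and the labels do not say whether replicates came from separate cultures, so that p-values measure the spread between these samples, which may be technical. All 6 GIST markers examined (KIT, ANO1, ETV1, PRKCQ, GPR20 and PDGFRA) were detected on all 4 arrays, although each was lower with the mimic, as given with the other gene lists. The epithelial marker CDH1, the endothelial marker PECAM1 and the hepatocyte marker ALB were detected on none. VWF, another endothelial marker, was detected on 1 control array, and PTPRC, a leukocyte marker, on 1 array of each condition. Neither passed the filter on dim probes, whereas CD3E, a T cell marker, and EPCAM, an epithelial marker, passed it, at low signal.

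Cells enter mitosis when CDK1 bound to a B-type cyclin is activated. Kinetochores then attach chromosomes to the spindle, the spindle checkpoint holds back the anaphase-promoting complex until every chromosome is attached, and destruction of cyclin B and securin lets the sister chromatids part. Transcripts of this machinery accumulate late in the cell cycle, and many of their promoters carry a cell cycle homology region (CHR) together with CCAAT boxes. The miRNA miR-34a is induced by p53 and is known for slowing the cell cycle.

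The mature sequence of miR-34a is shown because the mimic stands for it, with the seed (bases 2 to 8) in capitals. It was taken from RefSeq, where it lies at chr1:9151735-9151756 on the minus strand of GRCh38.p14.
hsa-miR-34a-5p: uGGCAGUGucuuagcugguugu
The letters complementary to this seed, CACTGCC, or the related ACTGCCA, were in 0 of the 61 member probes, and one or the other was in 0.7% of all probes on the array. The probes are 60 bases long, so this says nothing of the rest of each transcript.

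Promoter windows of 300 bases, from 250 before to 50 after the start, were available from RefSeq (GRCh38.p14) for 41 of the 48 members. The CHR letters TTTGAA or TTCGAA, on either strand, were in 30 of the 41 (73.2%) and in 16.6% of the 27305 promoters of the table. CCAAT, on either strand, was in 32 of the 41 (78.0%) and in 35.7% of all promoters, and both were in 25 (61.0%) against 6.58%. A CHR match that began within 60 bases before to 30 bases after the start was present in 24 members (58.5%) and in 4.66% of all promoters. The next lines give the 30 bases around such a match, as examples from the most negative members, from 2 core regulators and from the 2 members that were higher on both mimic arrays and had a match near the start. The capitals mark 1 match to the CHR letters, or to their reverse complement, in each line. The NDC80 line holds a further match, in lower case, directly before the capitals.
SPC25, chr2:168890416-168890445, minus strand: aagtgcactaggTTTGAAatcggaaagttg
KIF14, chr1:200620733-200620762, minus strand: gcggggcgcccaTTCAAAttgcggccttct
MKI67, chr10:128126435-128126464, minus strand: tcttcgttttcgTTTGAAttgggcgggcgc
NDC80, chr18:2571548-2571577, plus strand: gagaatttcaaaTTCGAAcggctttggcgg
PLK1, chr16:23678848-23678877, plus strand: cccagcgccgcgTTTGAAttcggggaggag
CCNB2, chr15:59105105-59105134, plus strand: agcgacgcggtaTTTGAAtcctggaacaag
INCENP, chr11:62123989-62124018, plus strand: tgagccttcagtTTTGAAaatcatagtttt
BUB1, chr2:110678045-110678074, minus strand: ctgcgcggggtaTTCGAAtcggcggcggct
A match is a description of these letters and not a site of binding. The 30 members with a CHR match had a median log2 difference of -0.15, with 27 negative, and the 11 without had a median of -0.13, with 8 negative. For a CHR match near the start the order was the other way. The 24 members with one had a median of -0.13, with 21 negative, and the 17 without had -0.16, with 14 negative. These differences between groups of members were not tested. Members on both sides of 0 carried the letters.

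**Figure D1:**
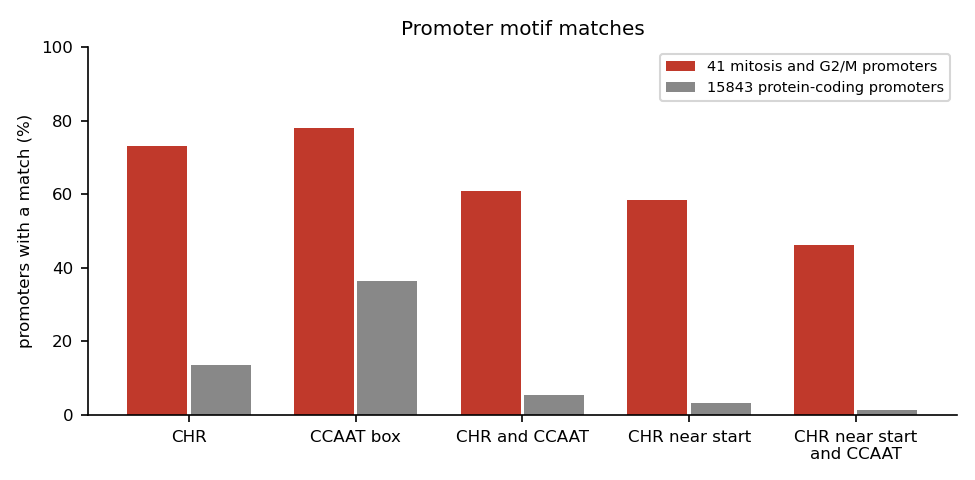
Share of promoters (y axis, percent) with a match to each motif (x axis) in the 41 mitosis and G2/M promoters (red) and in 15843 protein-coding promoters (gray). CHR matches were in 73.2% of the member promoters and in 13.5% of the protein-coding promoters.

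The question put to these genes was whether their mRNA levels differ after transfection of the miR-34a mimic. Levels are given as the log2 processed signal minus the 75th percentile of the array, differences are mimic minus control on the log2 scale, and levels of different genes are not compared. As a group the mitosis and G2/M genes were slightly lower with the mimic: the median difference was -0.16, or 1.12-fold, with quartiles of -0.22 and -0.09, against a median of -0.0077 over all 21474 probes tested. Of the 48 members, 42 were negative (87.5%) and 6 were positive, where 51.5% of all tested probes were negative. Both mimic arrays lay below both control arrays for 38 members, where 30.1% of tested probes did so, and above both for 3, where 30.4% did so. In RNA from whole cultures, fewer cells in G2 or mitosis and less RNA per such cell cannot be told apart.

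The differences were small. No member was lower or higher by more than 1.5-fold (0 and 0 of 48), where 4.8% of tested probes were lower and 2.11% higher by that much, and the largest decrease was 1.497-fold, for SPC25. At an adjusted p under 0.05 by limma with Benjamini-Hochberg adjustment, 0 members and 0 (0%) of all tested probes passed, the smallest adjusted p of any probe being 0.0948. At an unadjusted p under 0.05 by limma, 18 members were lower (37.5%), where 11.6% of tested probes were, and 2 were higher, where 12.7% were. With a variance trend, which lets the prior variance in limma depend on signal, 6 members passed an adjusted p under 0.05 as lower (SPC25, UBE2C, MKI67, NDC80, CEP55 and PTTG1), where 3.6% of tested probes did, and 1 as higher (INCENP), where 3.81% did. An exact two-sided permutation test of 2 arrays against 2 cannot give a p below 0.33.

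The direction was shared by the arrays. Mimic array 1 was lower than control array 1 for 43 of 48 members and lower than control array 2 for 41. Mimic array 2 was lower than control array 1 for 42 members and lower than control array 2 for 43. The median differences of these 4 pairs lay between -0.16 and -0.14. Between replicates the medians were -0.02 for mimic 1 minus mimic 2 and 0.01 for control 1 minus control 2, so that the shift of the group was larger than the gap between replicates. The brightest probes of the 15239 genes detected on all 4 arrays are the like measurement for all genes, with a median difference of -0.0011. Of these genes, 50.3% were negative, 29.9% lay below on both mimic arrays and 32.1% above on both. By unadjusted limma p, 11.3% of them were lower and 13.2% higher, and with the variance trend 4.14% and 4.51% passed the adjusted threshold. More than 1.5-fold lower were 2.56% and higher 1.38%.

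**Figure D2:**
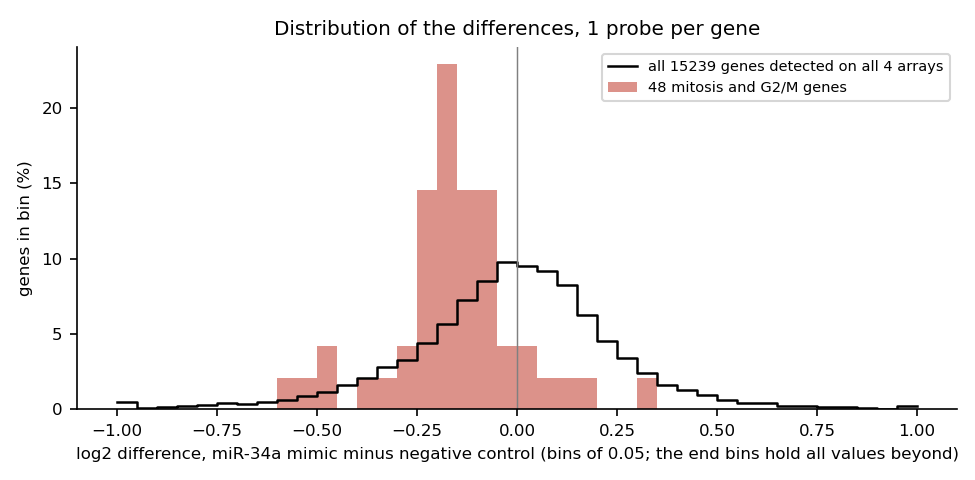
Percent of genes (y axis) in bins of 0.05 of the log2 difference, mimic minus control (x axis), for the 48 mitosis and G2/M genes (red bars) and for all 15239 genes detected on all 4 arrays (black line), with 1 probe per gene. The end bins hold all values beyond them, and the members lie mostly between -0.3 and 0, with a median of -0.16.

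The cyclins and CDK1, which drive entry into mitosis, were slightly lower. CDK1, the kinase itself, measured 3.46 and 3.44 on the mimic arrays and 3.62 and 3.59 on the control arrays, a difference of -0.16 ± 0.05 (SE, n = 2 per condition; adjusted p = 0.201 by limma). CCNB1, its main B-type cyclin, measured 4.44 and 4.48 against 4.63 and 4.65, a difference of -0.17, and its second probe gave -0.26. Both conditions were separate for both genes, although the gaps were small. CCNB2 and CCNA2, further mitotic cyclins, were at -0.22 each, while the phosphatase CDC25C, which activates CDK1, was at -0.09 and CKS2, a CDK1 subunit, at -0.05. CDC25B, a related phosphatase, was at 0.00, with the conditions overlapping.

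Among the mitotic kinases, PLK1, which acts at several steps of mitosis, measured 0.71 and 0.52 with the mimic and 0.82 and 0.90 with the control, a difference of -0.25 (adjusted p = 0.22 by limma). A dimmer second PLK1 probe gave -0.70 (adjusted p = 0.266 by limma). AURKA, which works at the spindle poles, measured 2.86 and 2.83 against 2.96 and 3.1, a difference of -0.18 (adjusted p = 0.251 by limma). NEK2, a centrosomal kinase, measured -0.06 and -0.04 against -0.05 and -0.33, a difference of 0.14 (adjusted p = 0.492 by limma). The conditions were separate for PLK1 and AURKA and overlapped for NEK2, where control array 2 was low. The sizes rested on single arrays: PLK1 was at -0.16 without mimic array 2, and without control array 2 AURKA was at -0.11 and NEK2 at 0.0013.

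The chromosomal passenger complex was divided. AURKB, its kinase, measured 0.88 and 0.91 with the mimic against 1.15 and 1.22, a difference of -0.29 ± 0.06 (SE; adjusted p = 0.125 by limma). BIRC5 (survivin) measured 5.24 and 5.22 against 5.42 and 5.39, a difference of -0.17, and CDCA8 (borealin) was at -0.10. INCENP, the scaffold of the same complex, was the most positive member: it measured 1.03 and 1.05 with the mimic and 0.75 and 0.70 with the control, a difference of 0.31 ± 0.06 (SE), or 1.24-fold (adjusted p = 0.109 by limma and 0.0494 with the variance trend). All 4 genes of this complex had conditions that did not overlap. Over all tested probes, 30.1% were below and 30.4% above on both mimic arrays.

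In the spindle checkpoint, MAD2L1, which binds and holds CDC20, measured 3.21 and 3.08 against 3.40 and 3.41, a difference of -0.26 (adjusted p = 0.163 by limma). BUB1B, which encodes BubR1, measured 2.98 and 2.94 against 3.07 and 3.04, a difference of -0.09. The checkpoint kinase TTK was at -0.16 and BUB3 at -0.09. BUB1, a further checkpoint kinase, was slightly higher, at 1.67 and 1.71 against 1.58 and 1.64, a difference of 0.08 (adjusted p = 0.422 by limma). BUB3 was the only one of these 5 genes with overlapping conditions. Of all tested probes, 30.1% lay below on both mimic arrays and 30.4% above on both.

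All 4 genes of the anaphase-promoting complex and separase group were negative. UBE2C, the ubiquitin-conjugating enzyme of that complex, measured 4.96 and 4.93 with the mimic and 5.30 and 5.31 with the control, a difference of -0.36 ± 0.05 (SE), or 1.29-fold (adjusted p = 0.0964 by limma and 0.0143 with the variance trend). PTTG1 (securin), which holds separase inactive, was at -0.24, and the separase ESPL1 was at -0.16. CDC20, the activator of the complex, measured 3.26 and 2.88 against 3.29 and 3.22, a difference of -0.18. That value came from mimic array 2: without it the difference was 0.00884.

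The kinetochore genes held the most negative member, and all 7 were negative. The NDC80 complex, which binds microtubules, is built of NDC80, NUF2, SPC24 and SPC25. All 4 were lower on both mimic arrays than on both control arrays, where 30.1% of tested probes were. SPC25 measured 2.23 and 2.30 with the mimic and 2.82 and 2.88 with the control, a difference of -0.58 ± 0.06 (SE; adjusted p = 0.0948 by limma and 0.0112 with the variance trend). NDC80 measured 3.12 and 3.27 against 3.64 and 3.70, a difference of -0.48 ± 0.08 (SE; adjusted p = 0.106 by limma). NUF2 was at -0.24 and SPC24 at -0.13, and a much dimmer second SPC24 probe, detected on 3 arrays, gave -0.98 (adjusted p = 0.11 by limma). The centromere proteins CENPE, CENPF and CENPA were at -0.11, -0.11 and -0.06. On hg19 the array annotation places the SPC25 probe at chr2:169727956-169728015 and the NDC80 probe at chr18:2610798-2610857.

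Kinesins, the motors of the spindle and midzone, differed widely. KIF14, a cytokinesis motor, measured 0.74 and 0.29 with the mimic and 1.09 and 1.04 with the control, a difference of -0.55 ± 0.18 (SE; adjusted p = 0.192 by limma). Its mimic arrays lay 0.45 apart, the widest replicate gap among the members, and leaving out 1 array moved its difference between -0.78 and -0.32. KIF4A and KIF2C were at -0.22 each, KIF15 at -0.10, and KIF11, the motor that separates the spindle poles, at -0.04 with overlapping conditions. KIF23 was at -0.04, but its second probe gave 0.19, so that its direction depended on the probe. KIF20A, a midzone motor, measured 1.14 and 1.16 against 1.00 and 0.96, a difference of 0.17 (adjusted p = 0.19 by limma).

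Of the 9 genes of the spindle and of cytokinesis, 8 were negative. CEP55, a midbody protein needed for the final separation of the daughter cells, measured 2.56 and 2.62 with the mimic and 2.96 and 2.89 with the control, a difference of -0.34 ± 0.06 (SE; adjusted p = 0.111 by limma), and its second probe gave -0.26. RACGAP1, TPX2 and ASPM lay between -0.18 and -0.16, DLGAP5 and NUSAP1 at -0.14 and -0.12, and PRC1 and ECT2 at -0.09 and -0.07. ANLN (anillin) was at 0.03, with overlapping conditions.

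The remaining members act on chromosome structure. MKI67, which encodes the proliferation antigen Ki-67, measured 1.04 and 0.99 with the mimic and 1.52 and 1.5 with the control, a difference of -0.50 ± 0.05 (SE), or 1.41-fold (adjusted p = 0.0948 by limma and 0.0172 with the variance trend). Its other 2 probes gave -0.27 and -0.49. TOP2A, the topoisomerase that untangles sister chromatids, measured 2.06 and 2.06 against 2.28 and 2.21, a difference of -0.19 (adjusted p = 0.185 by limma).

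**Figure D3:**
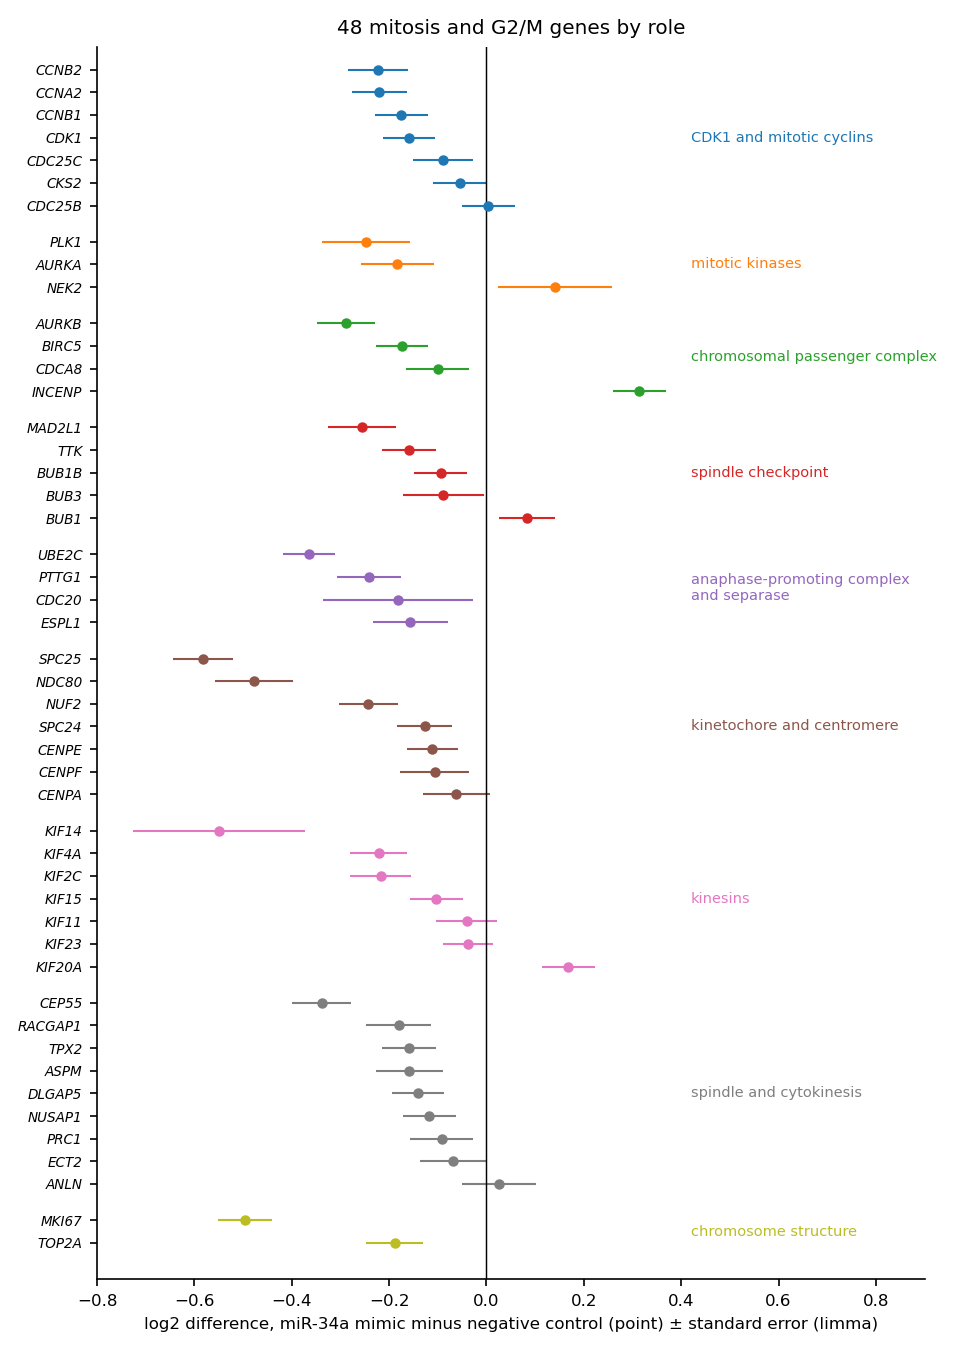
Log2 difference, mimic minus control (x axis), of each of the 48 genes (y axis), grouped and colored by role; points are limma estimates from 2 arrays per condition and bars their standard errors. SPC25 is lowest at -0.58 and INCENP highest at 0.31.

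**Figure D4:**
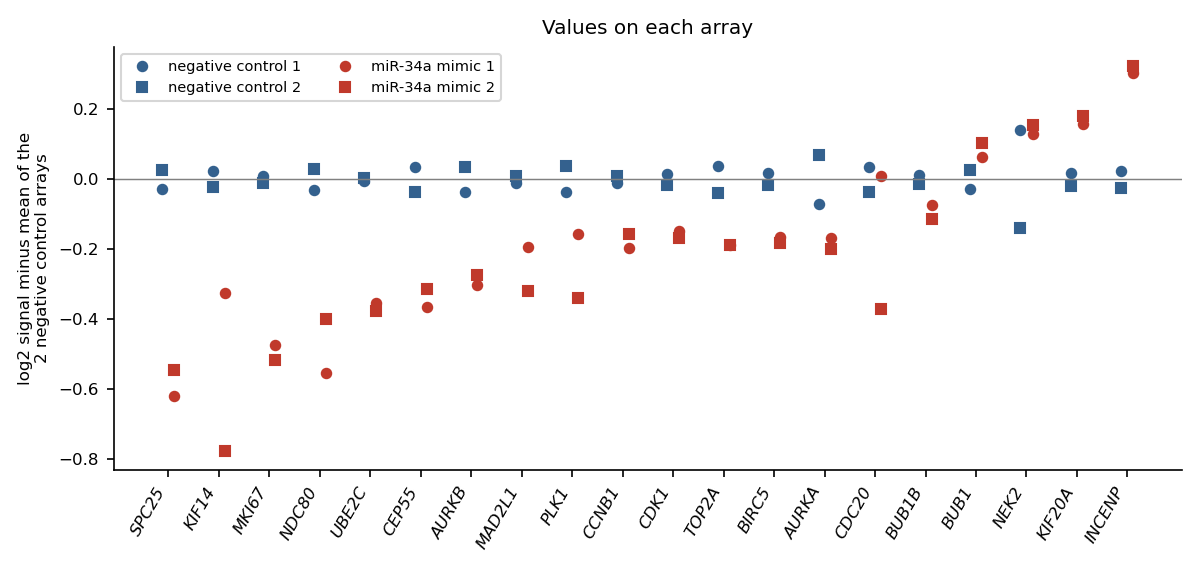
Log2 signal on each array minus the mean of the 2 control arrays (y axis) for 20 of the genes (x axis), with mimic arrays in red and control arrays in blue; circles are replicate 1 and squares replicate 2. The mimic points of CDC20 lie far apart, at 3.26 and 2.88 before the control mean is subtracted, and those of INCENP lie above both control points.

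Genes that regulate or accompany the members were described by the same fit. Of 16 regulators of mitotic transcription, the median was -0.10 and 12 were negative. MYBL2, a subunit of the activating MMB complex, was at -0.42 (adjusted p = 0.109 by limma and 0.0254 with the variance trend), and FOXM1, the forkhead activator of G2/M genes, measured 3.91 and 4.01 against 4.10 and 4.12, a difference of -0.16 (adjusted p = 0.254 by limma). E2F5, a DREAM complex subunit, was lower by 2.04-fold, the only one of the 16 past 1.5-fold (adjusted p = 0.0953 by limma).

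Of 11 CDK1 brakes and G2 checkpoint genes, 8 were tested and 7 were negative, with a median of -0.29. GADD45G was lower by 1.71-fold, and GADD45B, a relative, was at 0.50. WEE1, the kinase that inhibits CDK1, measured 1.92 and 1.32 with the mimic against 2.04 and 2.07, a difference of -0.43 (adjusted p = 0.329 by limma) that rested largely on mimic array 2. CDKN1A, which encodes p21, was well above background on 0 of the 4 arrays.

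Partner complexes gave medians nearer to 0: -0.08 over 16 other genes of the anaphase-promoting complex, -0.09 over 18 condensin and cohesin genes, -0.11 over 30 other kinetochore genes and -0.04 over 19 other spindle and centrosome genes. No gene of these 4 lists was past 1.5-fold. The 20 S phase genes had a median of -0.23, with 17 negative. By limma with the variance trend, 9 of them were lower at an adjusted p under 0.05, where 3.6% of tested probes were. GINS3, a subunit of the replicative helicase, was lower by 1.85-fold. The 14 reference genes had a median of -0.06, with 10 negative.

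The 6 GIST markers were lower as well. Their median was -0.29, beside -0.16 for the mitosis and G2/M genes. All 6 lay below on both mimic arrays, where 30.1% of tested probes did so. PDGFRA, a receptor tyrosine kinase, was lower by 2.90-fold, and KIT, the receptor kinase that defines most of these tumors, by 1.62-fold (adjusted p = 0.0948 each by limma). The other 4 were smaller, GPR20 being at -0.35, PRKCQ at -0.23, ETV1 at -0.07 and ANO1 at -0.06. With the variance trend in limma, 3 of the 6 (PDGFRA, KIT and GPR20) passed an adjusted p under 0.05 as lower, where 3.6% of tested probes did. The part of this shift in the result for the mitosis and G2/M genes was not tested, nor was the difference between any of these lists.

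**Figure D5:**
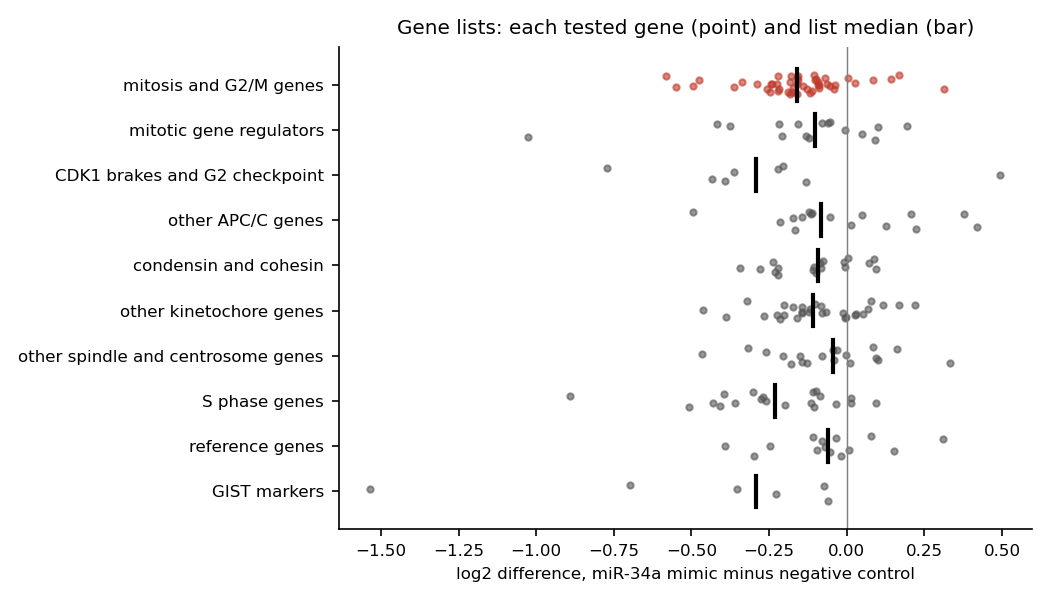
Log2 difference, mimic minus control (x axis), of each tested gene (points) of the mitosis and G2/M genes (red) and of 9 other lists (gray), with the list median as a black bar. The median is -0.16 for the mitosis and G2/M genes, -0.23 for the S phase genes, -0.29 for the GIST markers and -0.06 for the reference genes.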

How the data were processed

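The authors deposited the intensity of every spot on 4 one-color Agilent arrays, extracted with Agilent Feature Extraction 10.7 per the labels, and a table of the same processed intensity, which differed from the scanner values by at most 0.496%. The deposited values were background-subtracted but not scaled between arrays, and 0 columns were left unmapped. Control spots and outlier spots were left out, 0 spots were saturated, and spots of a probe were averaged. From each log2 signal, the 75th percentile of its array was subtracted. Of 50599 probes, 21474 were detected (well above background) by each of the 2 arrays in 1 or both conditions, and these were tested with limma 3.58.1 (R 4.3.3, package data.table version 1.17.8) and Benjamini-Hochberg adjustment. Between 41.8% and 45.2% of probes were detected per array, and precision is limited by how few arrays there are. The fold threshold of 1.5 is the one the authors applied to these arrays, and their methods name t tests for continuous variables in general but no test for the arrays. Slide and scan were shared by all arrays and could not serve as a block.

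The members and gene lists were chosen with earlier results of these data known. Array values were given for members past 1.5-fold, the 8 most negative and 4 most positive, and CDK1, CCNB1, PLK1, AURKA, AURKB, CDC20, BUB1B, BIRC5, TOP2A and MKI67. Probes of a gene that differed in sign or by over 0.58 were named. Of the other lists, genes past 1.5-fold, FOXM1, MYBL2, CDKN1A and WEE1 were named, and GADD45B, the only gene of its list that was positive, was added after its value was seen. The share over the brightest probes detected on all 4 arrays was also added after the data were seen. Alternatives were normexp background correction, quantile normalization, the percentile over detected probes, 2 filters on dim probes, the authors' table, the mean of all probes of a gene, a replicate block, a variance trend, the methods' t-test and leaving out each array. The calculations were tested on simulated data. One marker of another cell type is not reported here.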

Additional observations from a re-analysis of the deposited data

How the results depend on the processing

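The group's median stayed negative under every alternative run: it was -0.124 with normexp, -0.143 with quantile normalization and between -0.162 and -0.137 when each array was left out. The number of members lower at an adjusted p under 0.05 by limma was 0 as reported, 4 with normexp and 6 with a variance trend. Of all tested probes, 0% were lower at that threshold as reported and 3.6% with the variance trend. The share was not computed for normexp or the other alternatives, so their counts have no such share beside them. Lower by more than 1.5-fold were 0 members as reported, 1 with the percentile over detected probes, and 0 to 1 when each array was left out. The count at an unadjusted p under 0.05 was 18, and fell to between 5 and 12 without 1 array, where 1 condition has a lone sample that is assumed to vary like the other. With the replicate number as a block it was 9. Same-numbered arrays deviated from their condition means with a correlation of -0.03 across probes. That value cannot tell whether samples of the same number were prepared together, and the labels do not say. The sign of CDC25B turned to -0.00405 with the percentile over detected probes, and that of KIF23 to 0.0768 with the mean of its probes. When each array was left out, CDC25B ranged from -0.0214 to 0.0292, ANLN from -0.0393 to 0.0924 and CDC20 from -0.373 to 0.00884. In all, 17 of the 48 differences turned or moved by over 1.5 times without 1 array. The cause was not tested.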
